A study of Lathyrus oleraceus with 9 samples.

Results

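Genes proposed to regulate programmed cell death (PCD) in plants were followed in ageing pea seeds through 8 probes of a pea oligonucleotide array, out of 5246 probes on it. The 8 probes were annotated as a DDI1-like protein, a NIMA-related protein kinase, the homeobox protein KNAT4, a sentrin-specific protease, an MA3 domain protein, accelerated cell death 1 and, in 2 cases, the dehydration-responsive protein RD22. They were taken as the members of a set because the study's gene lists place them among proposed PCD regulators, and every gene on those lists had been selected on its ratio of aged to non-aged seeds, with a change of at least 2-fold on these same arrays. That ratio is therefore given below as a description, with no test, and the differences between ageing times are tested only where the choice of probes did not fix them.

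Seeds of pea (Pisum sativum L. cv. Alaska Early) were all brought to a moisture content of 12% at 60% relative humidity and 20°C. Aged seeds were then held in closed bottles at 50°C for 8, 12 or 15 d, and non-aged seeds were not. Each replicate was a pool of 20 whole seeds. RNA of aged and of non-aged seeds was hybridised together on a 2-colour array, with 3 arrays at each ageing time, which makes 9 in all, and replicate 2 of each time had its dyes swapped. The sources do not say whether the same non-aged RNA served at all times.

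PCD is a genetically controlled process by which a cell brings about its own death, and in plants it takes part in development, in the response to pathogens and in the emptying of reserve tissues of seeds. Plants lack the caspases that carry out apoptosis in animals, and proteases of other families, ubiquitin and SUMO tags on proteins, mitochondria and the endoplasmic reticulum have been studied in their place. Orthodox seeds lose viability as they age in the dry state, and fragmentation of DNA of the kind seen in PCD is one of the changes followed in such seeds.

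All values are log2 ratios of aged to non-aged seeds, so that 1 is 2-fold higher and -1 is 2-fold lower in aged seeds, and the error given is the SD of 3 arrays. A probe gives the amount of a transcript relative to non-aged seeds and not its level. Fewer cells with a transcript cannot be told apart from less transcript per cell in these whole-seed extracts. The arrays were normalised, with medians between 0.01 and 0.02, so a loss common to all transcripts would not show. Each fold is therefore relative to the other probes of the array. The paper reports that RNA was partly degraded from the onset of ageing, and its effect on these ratios was not tested. A probe was called at a Benjamini-Hochberg adjusted p under 0.05 in limma where its log2 ratio was also 1 or more in size. At 8 d, 2 of the 8 probes were called higher, among 2.52% of all probes, and 1 was called lower, among 4.48%. At 12 d, 3 were called higher and 1 lower, where 3.13% and 4.77% of all probes were. At 15 d, 6 were called higher and 1 lower, where 5.64% and 7.09% of all probes were. With the arrays scaled to the same spread, 1 was called higher and 1 lower at 15 d. With no fold threshold, 7 of the 8 passed as higher and 1 as lower at 8 d and at 12 d, and 70.8%, 71.3% and 72.5% of all probes passed in either direction at 8, 12 and 15 d. These counts follow from how the probes were chosen, and each of the 8 was called at 1 or more times.

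Apart from KNAT4 and accelerated cell death 1, the members' highest ratios were close to the 2-fold threshold. The lowest of the members' highest ratios belonged to RD22 probe PSOLI04811, at 1.01, and the next to the MA3 domain protein, at 1.06. Just outside it, the 2 nearest probes of the array, PSOLI00582 and PSOLI05011, had a ratio of 0.997 in size at their most changed time, and 83 probes lay between 0.95 and 1.

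**Figure D1:**
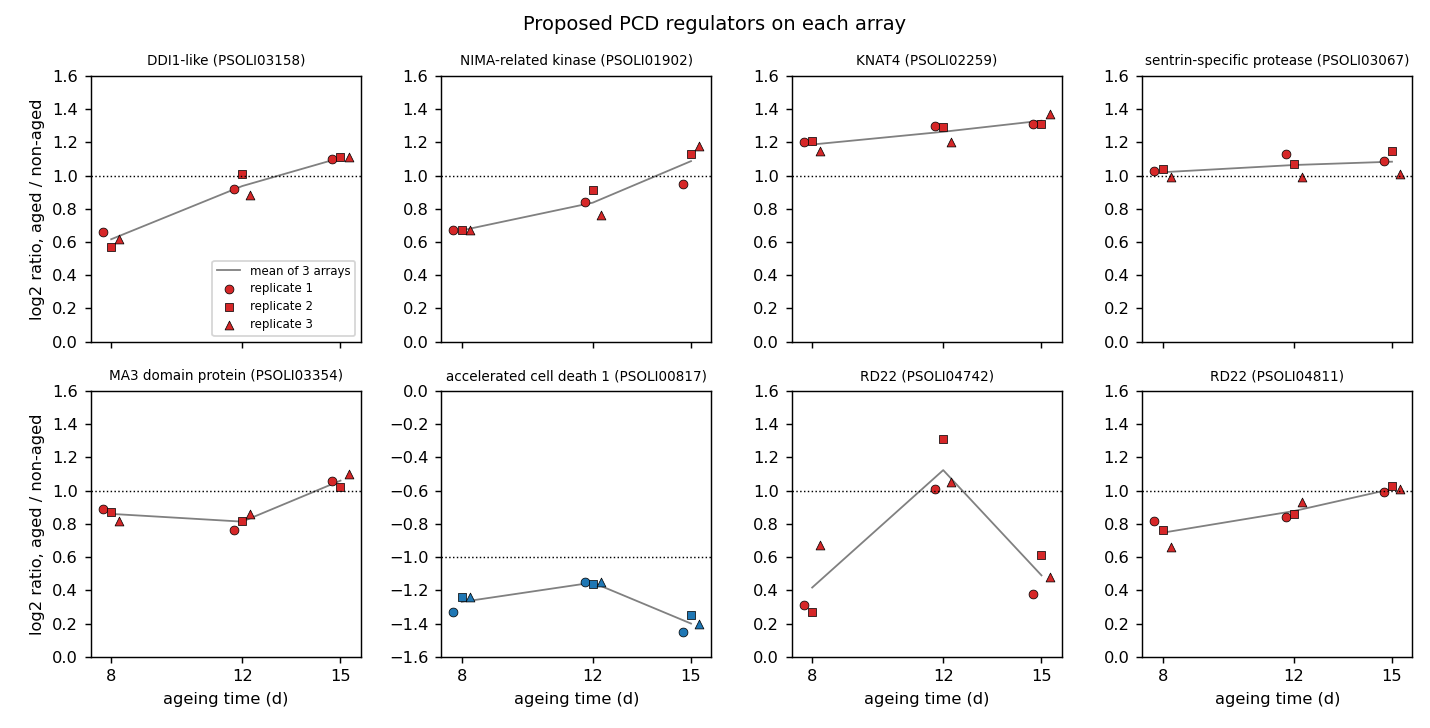
Log2 ratio of aged to non-aged seeds (y axis) against ageing time in days (x axis) for each of the 8 probes; each point is 1 array, shifted sideways by replicate, the line joins the means of 3 arrays and the dotted line marks a 2-fold difference. Apart from accelerated cell death 1, every panel lies above 0 on all arrays, and that probe (blue) lies below -1 on all of them, while RD22 probe PSOLI04742 is above 1 at 12 d alone.

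The DDI1-like probe (PSOLI03158) had a higher mean ratio at each later time. Ddi1 of budding yeast is a ubiquitin receptor that carries ubiquitin-tagged proteins to the proteasome and has a domain folded like that of retroviral aspartic proteases. Its log2 ratio was 0.66, 0.57 and 0.62 on the arrays of 8 d, 0.92, 1.01 and 0.88 on those of 12 d, and 1.10, 1.11 and 1.11 on those of 15 d. The arrays of the 3 times did not overlap, and those of 15 d lay within 0.01 of each other. Its means were 0.62 ± 0.045, 0.94 ± 0.067 and 1.11 ± 0.0058 at 8, 12 and 15 d, which is 1.53-fold, 1.91-fold and 2.15-fold the amount in non-aged seeds. The ratio was higher at 12 d than at 8 d by 0.32 (95% interval 0.207 to 0.433, adjusted p = 0.00077 in limma over all probes). The probe was called at 15 d alone, so that its further differences, 0.17 for 15 d over 12 d and 0.49 for 15 d over 8 d, are given with no p. With the arrays scaled to the same spread, the 15 d over 12 d difference was 0.05. In the order of all probes it stood above 89.1%, 95.9% and 96.5% of them at 8, 12 and 15 d.

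The sentrin-specific protease probe (PSOLI03067) had ratios close to the 2-fold threshold at all 3 times. Proteases of this family process SUMO, also called sentrin, and remove it from proteins to which it has been attached. Values of 1.03, 1.04 and 0.99 were found at 8 d, 1.13, 1.07 and 0.99 at 12 d, and 1.09, 1.15 and 1.01 at 15 d. The arrays of all 3 times overlapped, each time having a lowest array within 0.02 of the other two. Means were 1.02 ± 0.026, 1.06 ± 0.07 and 1.08 ± 0.07 at 8, 12 and 15 d, so that the probe was called higher at every time. No difference between times passed limma's test (adjusted p = 0.65 for 12 d over 8 d, 0.85 for 15 d over 12 d and 0.41 for 15 d over 8 d). The interval of the difference between 15 d and 8 d ran from -0.057 to 0.183, which leaves room for a change of either sign, and with the arrays scaled to the same spread the difference was -0.10 (adjusted p = 0.22).

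The probe of the NIMA-related kinase (PSOLI01902) had a course like that of the DDI1-like probe, with more spread at 15 d. NIMA of Aspergillus nidulans is the kinase for which the family is named and is needed for entry into mitosis, and members of the family in plants act on microtubules and on directed growth. The ratio was 0.67 on all 3 arrays of 8 d, 0.84, 0.91 and 0.76 on those of 12 d, and 0.95, 1.13 and 1.18 on those of 15 d. No array of one time overlapped those of another, and the arrays of 15 d had the widest range. The kinase averaged 0.67, 0.84 ± 0.075 and 1.09 ± 0.12 at 8, 12 and 15 d. The difference between 12 d and 8 d was 0.17 and did not pass the test (95% interval 0.031 to 0.302, adjusted p = 0.081). This probe too was called at 15 d alone, and its differences of 0.25 for 15 d over 12 d and 0.42 for 15 d over 8 d are a description.

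KNAT4 (PSOLI02259) had the highest ratio of the 8 probes at each of the 3 times. KNAT4 of Arabidopsis is a homeodomain transcription factor of class II of the KNOX family. Its ratio was 1.20, 1.21 and 1.15 at 8 d, 1.30, 1.29 and 1.20 at 12 d, and 1.31, 1.31 and 1.37 at 15 d, so that all 9 arrays were past the 2-fold threshold. The means of 1.19 ± 0.032, 1.26 ± 0.055 and 1.33 ± 0.035 at 8, 12 and 15 d are 2.28-fold, 2.40-fold and 2.51-fold. The arrays of 15 d lay above those of 8 d with no overlap, and the difference of 0.14 passed the test (95% interval 0.032 to 0.254, adjusted p = 0.041). That call rested on the scale and on single arrays: with the arrays scaled to the same spread the difference was -0.05 (adjusted p = 0.55), and it missed the threshold when any one array of 8 d or of 15 d was left out (0.12 to 0.16, adjusted p between 0.061 and 0.13). The place of KNAT4 among all probes did not move up with time, since it stood above 98.9%, 98.8% and 98.6% of them at 8, 12 and 15 d.

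The MA3 domain protein (PSOLI03354) was flat between 8 d and 12 d. MA3 domains are found in the translation initiation factor eIF4G and in PDCD4, a protein of animals first described in dying cells that binds the RNA helicase eIF4A. Its ratio was 0.89, 0.87 and 0.82 at 8 d, 0.76, 0.82 and 0.86 at 12 d, and 1.06, 1.02 and 1.10 at 15 d. The arrays of 8 d and 12 d overlapped, and all 3 arrays of 15 d lay above both. From means of 0.86 ± 0.036, 0.81 ± 0.05 and 1.06 ± 0.04 at 8, 12 and 15 d, the difference between 12 d and 8 d was -0.05 (95% interval -0.158 to 0.065, adjusted p = 0.59). It was called at 15 d alone, where it exceeded the mean of 12 d by 0.25 and that of 8 d by 0.20.

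Accelerated cell death 1 (PSOLI00817) was the only one of the 8 probes with less transcript in aged seeds. In Arabidopsis the gene encodes pheophorbide a oxygenase, which opens the ring of the chlorophyll breakdown product pheophorbide a, and mutants that lack it show spreading cell death. The ratio was -1.33, -1.24 and -1.24 at 8 d, -1.15, -1.16 and -1.15 at 12 d, and -1.45, -1.35 and -1.40 at 15 d. All 9 arrays were past the 2-fold threshold, those of 12 d being nearest to it and those of 15 d farthest, with no overlap between times. The means were -1.27 ± 0.052, -1.15 ± 0.0058 and -1.40 ± 0.05 at 8, 12 and 15 d, or 2.41-fold, 2.22-fold and 2.64-fold lower than in non-aged seeds.

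Between 12 d and 15 d the ratio of accelerated cell death 1 fell by 0.25 (95% interval -0.358 to -0.136, adjusted p = 0.0029). Its differences of 0.12 between 12 d and 8 d and of -0.13 between 15 d and 8 d did not pass the test (adjusted p = 0.14 and 0.062). With the arrays scaled to the same spread, the 15 d over 12 d difference was -0.09 (adjusted p = 0.29), the 12 d over 8 d difference was 0.17 (adjusted p = 0.040), and that between 15 d and 8 d was 0.07 (adjusted p = 0.35). The position among all probes moved little, with 1.96%, 3.32% and 3.07% of probes lower at 8, 12 and 15 d.

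**Figure D2:**
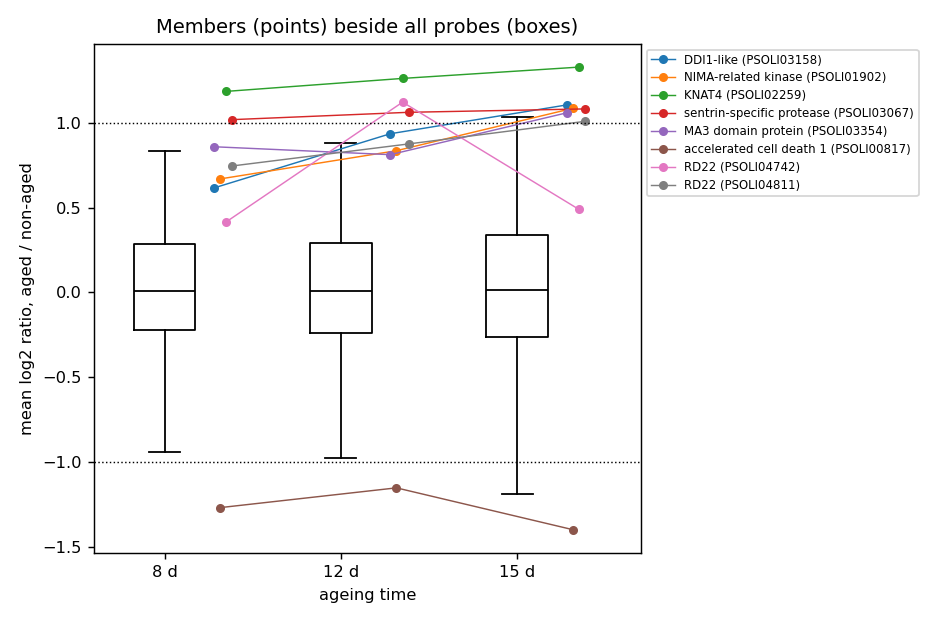
Mean log2 ratio of aged to non-aged seeds (y axis) at 8, 12 and 15 d (x axis); boxes show the quartiles and median of all 5246 probes with whiskers at their 5th and 95th percentiles, and coloured points joined by lines show the 8 probes. KNAT4 and the sentrin-specific protease stay above the upper whisker at every time, and accelerated cell death 1 stays below the lower whisker at every time.

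The pair of RD22 probes differed from each other in their course. RD22 of Arabidopsis is induced by dehydration and abscisic acid and carries a BURP domain, a C-terminal domain found only in plant proteins. Probe PSOLI04742 gave 0.31, 0.27 and 0.67 at 8 d, 1.01, 1.31 and 1.05 at 12 d, and 0.38, 0.61 and 0.48 at 15 d. All 3 arrays of 12 d lay above every array of the other times, and the arrays of 15 d and 8 d overlapped. With means of 0.42 ± 0.22, 1.12 ± 0.16 and 0.49 ± 0.12 at 8, 12 and 15 d, the transcript was 1.33-fold, 2.18-fold and 1.40-fold its amount in non-aged seeds.

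PSOLI04742 was listed for its ratio at 12 d alone, so its differences between times are described and not tested. The mean of 12 d exceeded that of 8 d by 0.71, the mean of 15 d was below that of 12 d by 0.63 on the log2 scale, and those of 15 d and 8 d differed by 0.07. Ranked by how far the mean of 12 d exceeded both others, the probe came first of 5246, with an excess of 0.63 over the nearer of them. The next was PSOLI00094, named as a LacZ fusion protein, with 0.58. That order re-uses the 12 d ratio for which PSOLI04742 was listed, so nothing is read from it. PSOLI04742 was also the least even of the 8, with a residual SD of 0.172, larger than that of 98.9% of probes. Its replicate 3 of 8 d, at 0.67, stood well above the other arrays of that time. Without that array the mean of 8 d was 0.29.

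Probe PSOLI04811, which the study's lists also place among seed-specific genes, gave 0.82, 0.76 and 0.66 at 8 d, 0.84, 0.86 and 0.93 at 12 d, and 0.99, 1.03 and 1.01 at 15 d. No time overlapped another, although the highest array of 8 d and the lowest of 12 d were 0.02 apart. Its means were 0.75 ± 0.081, 0.88 ± 0.047 and 1.01 ± 0.02 at 8, 12 and 15 d. The 12 d over 8 d difference of 0.13 did not pass the test (95% interval 0.012 to 0.248, adjusted p = 0.12), and those of 0.13 for 15 d over 12 d and 0.26 for 15 d over 8 d are a description, the probe having been called at 15 d alone.

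On the same array, PSOLI04742 minus PSOLI04811 was -0.51, -0.49 and 0.01 at 8 d, 0.17, 0.45 and 0.12 at 12 d, and -0.61, -0.42 and -0.53 at 15 d. The sign of this difference was thus positive on all 3 arrays of 12 d and negative on all 3 of 15 d. Both probes were named from similarity to RD22 of other species, and the difference was not tested because 1 of the pair had been chosen for its ratio at 12 d.

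A further RD22 probe, PSOLI00886, named as a fragment and annotated from the same database protein as PSOLI04742, was 0.59, 0.47 and 0.51 at 8 d, 0.60, 0.71 and 0.58 at 12 d, and 1.15, 1.03 and 0.94 at 15 d. It was highest at 15 d, where PSOLI04742 was lower on every array, by 0.42 to 0.77, whereas at 12 d PSOLI04742 was higher on every array, by 0.41 to 0.60. The other BURP domain probes named in the lists were embryonic abundant proteins, seed proteins first described in field bean. VF30.1 (PSOLI04363) averaged 0.87 ± 0.04, 1.07 ± 0.04 and 0.87 ± 0.055 at 8, 12 and 15 d, with the arrays of 12 d above all others. USP92 (PSOLI01459) was lower in aged seeds on all 9 arrays, at -1.36 ± 0.11, -1.39 ± 0.059 and -1.51 ± 0.096. Of these 3 further BURP domain probes, 2 were called higher and 1 lower at 1 or more times, where 6.39% and 7.45% of all probes were, and 1 was called higher with the arrays scaled to the same spread. All of them had been listed for such a change.

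**Figure D3:**
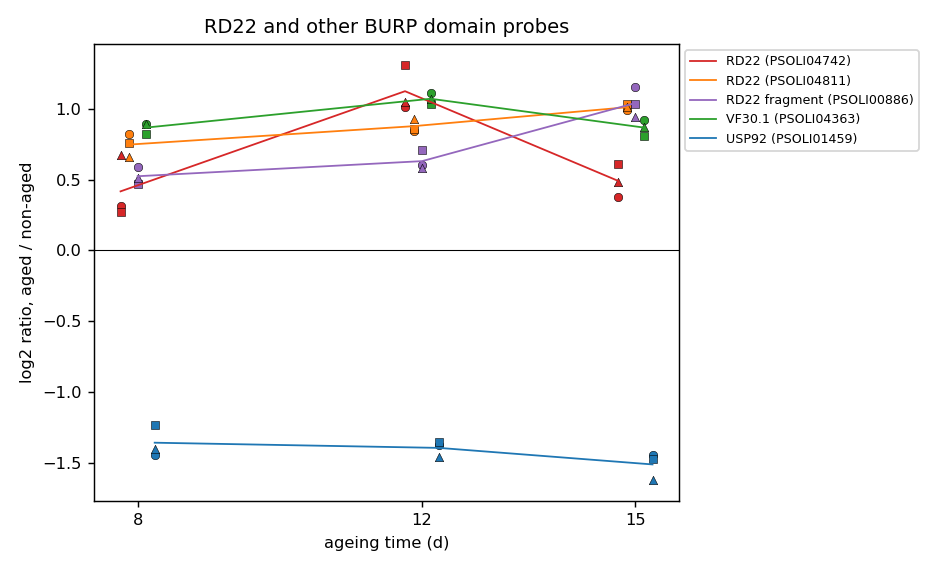
Log2 ratio of aged to non-aged seeds (y axis) against ageing time in days (x axis) for the 5 probes of RD22 and other BURP domain genes; points are single arrays (circle, square and triangle for replicates 1, 2 and 3) and lines join means. PSOLI04742 and VF30.1 are highest at 12 d, PSOLI04811 and PSOLI00886 are highest at 15 d, and USP92 lies below -1 throughout.

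Differences between times were tested only where neither time was the single one at which a probe had been called, and PSOLI04742 was left aside. Between 12 d and 8 d, 1 of the other 7 probes differed at an adjusted p under 0.05, the DDI1-like probe, where 18.5% of all probes did. The 3 probes called at every time, KNAT4, the sentrin-specific protease and accelerated cell death 1, could also be tested against 15 d. Of these, 1 differed between 15 d and 12 d, accelerated cell death 1, where 24.2% of all probes did, and 1 between 15 d and 8 d, KNAT4, where 38.0% of all probes did. With so few probes, these counts give no share to set beside that of the array. The median difference between 15 d and 8 d was 0.20 over the 7 probes listed as higher in aged seeds, 0.25 over the 335 probes of the array called higher at 1 or more times, and 0.02 over all probes.

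Ratios of 15 d were larger than those of 8 d over the whole array, with a slope of 1.17 when the mean of 15 d was set against that of 8 d over all probes. The median absolute deviation was 0.385 on each array of 8 d, 0.40 on each of 12 d and 0.445 to 0.46 on those of 15 d. When the arrays were scaled to the same spread, KNAT4 was the 1 probe still called higher at 15 d. The DDI1-like probe had 0.99 on that scale, the NIMA-related kinase 0.97, the protease 0.96, the MA3 domain protein 0.94 and PSOLI04811 0.90. The difference between 15 d and 8 d was then 0.34 for the DDI1-like probe and 0.27 for the NIMA-related kinase, against 0.49 and 0.42 on the deposited scale. The data do not tell which scale is the true one, and a difference between times is a difference on the deposited scale.

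**Figure D4:**
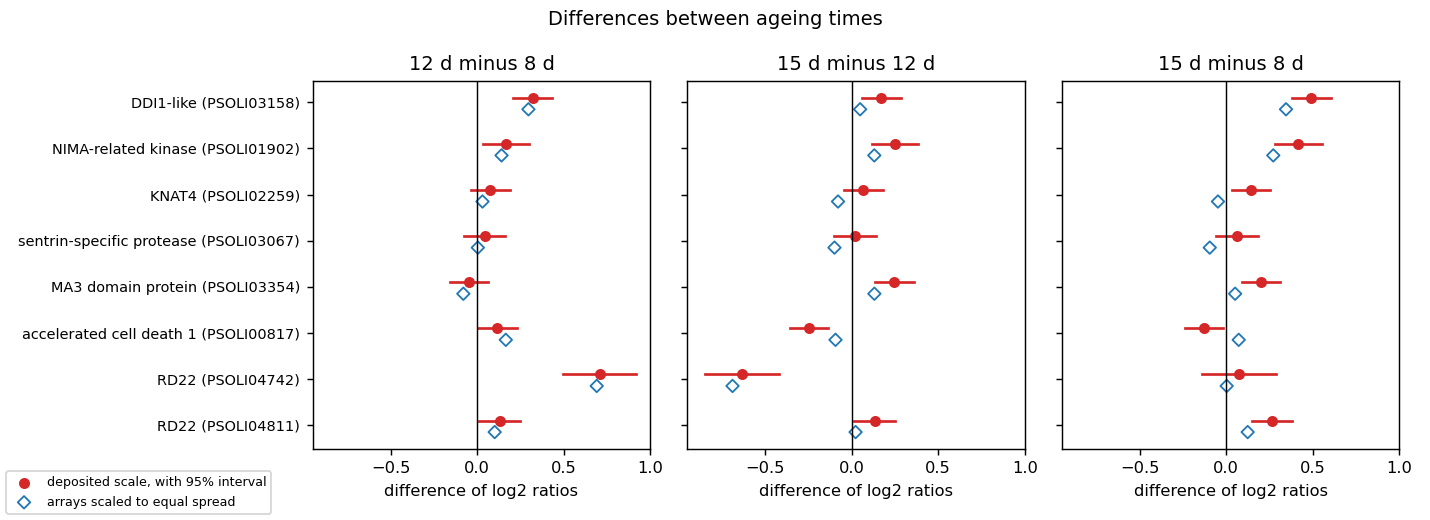
Difference of log2 ratios between ageing times (x axis), later minus earlier, for each of the 8 probes (rows); filled points are on the deposited scale with 95% intervals from limma, and open diamonds are from arrays scaled to the same spread. On the scaled arrays the differences that involve 15 d move left for every probe listed as higher in aged seeds, and the 15 d minus 8 d difference changes sign for KNAT4, the sentrin-specific protease and accelerated cell death 1.

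Apart from PSOLI04742, the 8 probes were even between arrays of one time, with residual SDs between 0.0418 for accelerated cell death 1 and 0.0822 for the NIMA-related kinase, where the median probe had 0.0739. Arrays with the aged RNA in Cy5 differed from those with it in Cy3 by -0.01 for the MA3 domain protein to 0.08 for PSOLI04742, and the adjusted p of this dye effect was 0.99 for each of the 8. No probe of the array had a dye effect at an adjusted p under 0.05 in limma, and 264, or 5.03%, had an unadjusted p under it. Pearson's r across probes was 0.974 to 0.984 between arrays of one time and 0.934 to 0.962 between arrays of different times, and array medians were between 0.01 and 0.02.

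Some probes of other genes followed those of the set closely over the 9 arrays, as measured by the root mean square difference of log2 ratios. The nearest to the DDI1-like probe was one named ubiquitin (PSOLI04506, 0.0517), with means of 0.66, 0.99 and 1.10 at 8, 12 and 15 d, and the nearest to the NIMA-related kinase was named polyubiquitin (PSOLI02850, 0.0780), with 0.62, 0.84 and 1.08. Ubiquitin is the small protein that tags others for the proteasome. An FtsH protease (PSOLI01794, 0.0655) and a Tubby-like F-box protein (PSOLI02431, 0.0783) were nearest to KNAT4. The MA3 domain protein had the closest neighbours among the 8, PSOLI01186 at 0.0300 and PSOLI02923 at 0.0365, both named as hypothetical proteins.

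PSOLI04742 had the most distant neighbours, but its residual SD of 0.172 between arrays of one time adds to any such distance. Its nearest probe, PSOLI04997, was 0.145 away, and the next, a cold stress protein (PSOLI04970), was 0.211 away. Both were highest at 12 d, with 0.53, 0.96 and 0.46 for PSOLI04997 and 0.54, 1.08 and 0.70 for the cold stress protein at 8, 12 and 15 d. The second neighbours of the DDI1-like probe (PSOLI04750, 0.0702) and of the kinase (PSOLI04482, 0.0790), both neighbours of the sentrin-specific protease (PSOLI03240, 0.0564, and PSOLI00355, 0.0663), of accelerated cell death 1 (PSOLI04374, 0.0796, and PSOLI00566, 0.0824) and of PSOLI04811 (PSOLI02721, 0.0544, and PSOLI01074, 0.0556) had no informative name. Within the set, the MA3 domain protein and PSOLI04811 (0.087) and the DDI1-like probe and the NIMA-related kinase (0.089) were the closest pairs.

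The list of proposed regulators held 5 further probes, of which 3 were called higher and 2 lower at 1 or more times. Of all probes, 6.39% and 7.45% were, and these 5 had been listed for such a change. Bax inhibitor 1 (PSOLI01240), a membrane protein of the endoplasmic reticulum that suppresses cell death in plants and animals, had 0.44, 0.45 and 0.49 at 8 d, 1.03, 1.03 and 0.96 at 12 d, and 0.74, 0.77 and 0.81 at 15 d. Its arrays at 12 d lay above those of the other times, as those of PSOLI04742 did, but those of 15 d lay above those of 8 d as well. Its means were 0.46 ± 0.026, 1.01 ± 0.04 and 0.77 ± 0.035. The cysteine proteinase RD21 (PSOLI04472), a papain-like enzyme, was called at 8 d alone, with 1.64, 1.87 and 1.68 at 8 d, 0.23, 0.03 and 0.07 at 12 d, and -0.02, 0.21 and 0.08 at 15 d.

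Cysteine proteinase 15A (PSOLI04496), also papain-like, was at 1.05 ± 0.047, 0.94 ± 0.055 and 1.08 ± 0.049. The plant-specific histone deacetylases were lower in aged seeds: HD2-P39 (PSOLI01229) had -1.89 ± 0.026, -2.05 ± 0.08 and -2.26 ± 0.097, and histone deacetylase 2a (PSOLI04371) had -1.05 ± 0.055, -1.12 ± 0.064 and -1.41 ± 0.095 at 8, 12 and 15 d. HD2-P39 was thus farther below non-aged seeds than accelerated cell death 1 at all 3 times.

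The study's list of mitochondrial genes in PCD held 10 probes, 5 called higher and 5 lower at 15 d, where 5.64% and 7.09% of all probes were. With the arrays scaled to the same spread, 3 were called higher and 5 lower at 1 or more times. The highest ratio at 15 d was that of an aconitate hydratase (PSOLI03775), an enzyme that isomerises citrate, at 1.42 ± 0.10. The lowest was that of the adenine nucleotide translocator (PSOLI00646), which exchanges ADP and ATP across the inner membrane, at -2.35 ± 0.07. In the paper's quantitative PCR with a spiked reference, its decrease became significant only at a later ageing time than those of the arrays. Over all 23 probes of both PCD lists, 15 were called higher and 8 lower at 1 or more times, where 6.39% and 7.45% of all probes were. The 8 probes described here made up 7 and 1 of these counts. These lists hold only probes that had been called on these arrays, and nothing is read from their counts.

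**Figure D5:**
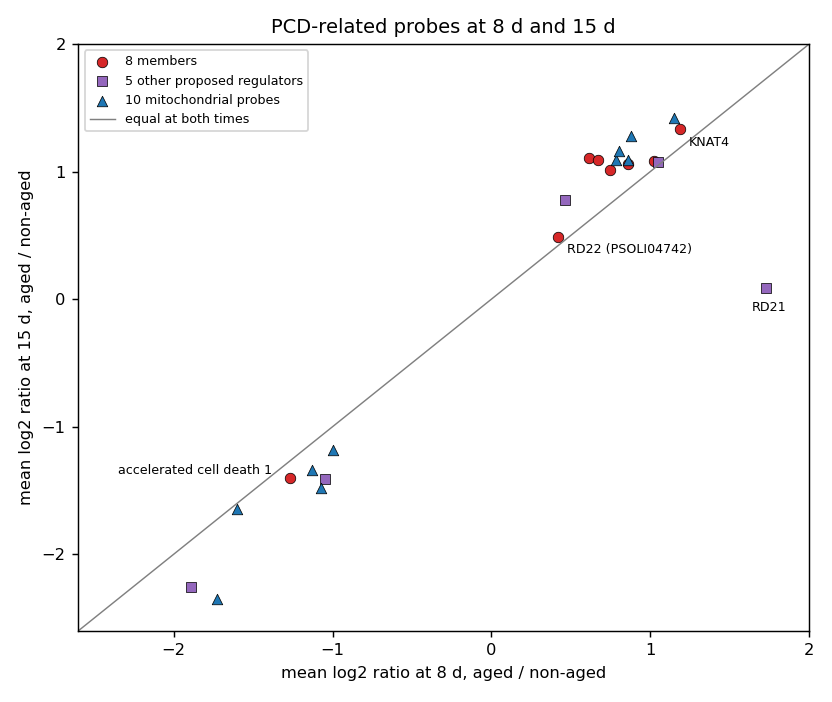
Mean log2 ratio of aged to non-aged seeds at 15 d (y axis) against that at 8 d (x axis) for the 23 probes of both PCD lists; each point is 1 probe, circles are the 8 probes described here, squares the 5 further proposed regulators, triangles the 10 mitochondrial probes, and the line marks equal ratios. RD21 lies far below the line, at 0.09 against 1.73, while the circles lie at most 0.49 from it in height, the distance of the DDI1-like probe.

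Other transcription factors and initiation factors named in the lists, beside KNAT4 and the MA3 domain protein, had ratios of both signs. For both lists below, the share of all probes called at 1 or more times was 6.39% higher and 7.45% lower. Of 12 other probes listed as transcription factors, 2 were called higher, 9 lower and 1 not at all. With the arrays scaled to the same spread, 1 was called higher and 9 lower. A MYB protein (PSOLI01092) had the highest ratio at 15 d, at 1.10 ± 0.03, below the 1.33 of KNAT4, and another MYB factor (PSOLI00544) had the lowest, at -1.96 ± 0.25. Of 8 translation initiation factors, 2 were called higher, 5 lower and 1 not at all, but with the arrays scaled to the same spread only 1 was called higher and 2 lower. The ratios at 15 d ran from 1.21 ± 0.04 for eIF4A-10 (PSOLI02308) to -1.49 ± 0.021 for eIF4A (PSOLI04311). Both of these are named for the RNA helicase that MA3 domains bind, and their ratios had opposite signs. These lists, too, come from genes that the study listed for a change on these arrays, so nothing is read from their counts.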

How the data were processed

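The values deposited were log2 ratios, with aged seeds as numerator, for 5246 probes and 9 arrays, and none was missing. The authors state that they subtracted background, applied print-tip loess and scaled the arrays by their median absolute values in limma. Its version is not given in the sources used here. The deposited values have no common scale over all 9 arrays, with a median absolute deviation of 0.385 at 8 d and 0.445 to 0.46 at 15 d. The direction was taken from the sign of the ratios in the study's gene lists, as were all names, which rest on similarity to proteins of other species. Those lists name the DDI1-like and the protease probe elsewhere as hypothetical proteins. Of the 8 identifiers, 0 matched the pea reference table, so no positions or sequences are given.

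All arrays were fitted in limma 3.58.1 under R 4.3.3 with 1 mean per time, 6 residual degrees of freedom, two-sided moderated tests and Benjamini-Hochberg adjustment over all probes in each comparison. Differences between times had no fold threshold. Python 3.11.15, pandas 2.3.3 and numpy 2.4.6 were used for the rest. The fit was tested on simulated data. For arrays, their number limits the precision. P-values measure the spread between replicates of pooled seeds, and the non-aged RNA behind the ratios may be shared between times.

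The members and lists were chosen with earlier results of these data known. The probes described are the 8 of the set, the 5 further proposed regulators and the other BURP domain probes. To these were added the highest and lowest of each further list at 15 d and the 2 nearest probes of each member. Some further listed probes, such as cytochrome c-1 (PSOLI00737), had a difference between times that ran against their sign and are not described. The probes just outside the threshold, and PSOLI00094, were named after their values were seen. Alternatives were scaling and centring of arrays, each time fitted alone, the replicate number as a block, a term for the dyes, leaving out each array, no fold threshold and an adjusted p under 0.10.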

Additional observations from a re-analysis of the deposited data

Results flagged for a closer look

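Of the differences between ageing times that the choice of probes did not favour, 3 had an adjusted p under 0.05 in limma on the deposited scale. They were 0.32 on the log2 scale for 12 d over 8 d for the DDI1-like probe PSOLI03158 (1 of 7 probes tested, against 18.5% of all probes), 0.14 for 15 d over 8 d for KNAT4 (PSOLI02259; 1 of 3, against 38.0%) and -0.25 for 15 d over 12 d for accelerated cell death 1 (PSOLI00817; 1 of 3, against 24.2%). The last 2 did not pass with the arrays scaled to the same spread, where they were -0.05 and -0.09 (adjusted p = 0.55 and 0.29 in limma). That of KNAT4 also failed when any one array of 8 d or of 15 d was left out. With so few probes tested, these counts give no share to set beside that of the array.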

How the results depend on the processing

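Of 336 ratios of the 8 probes under other settings, 324 moved by less than 1 SD, 12 moved further and 0 changed sign. Only scaling and centring could move a ratio that far, and the 12 come from these. Fitting each time alone, the dye term and the replicate block leave the means as they are. Leaving out a single array always shifts a mean by less than 1 SD. The 324 are therefore no measure of robustness. Of 336 differences between times, 311 kept their side of the threshold, 20 no longer passed, 4 newly passed and 1 that had passed changed sign. These differences, and the counts of 7 probes below (1, 4 and 5 on the deposited scale for 12 d over 8 d, 15 d over 12 d and 15 d over 8 d), include differences with 15 d that the choice of probes favours, and are no evidence on them. With the arrays scaled to the same spread, 1 of the 8 probes was called higher at 15 d, and of the 7 probes without PSOLI04742, 2 differed for 12 d over 8 d, 0 for 15 d over 12 d and 2 for 15 d over 8 d. On that scale 3 mitochondrial probes, 1 other transcription factor, 1 other BURP domain probe and 1 initiation factor were called higher, and 2 initiation factors lower. The 15 d over 8 d difference of KNAT4 (PSOLI02259) turned to -0.048 there (adjusted p = 0.55). With an adjusted p under 0.10, 2 of 7 differed between 12 d and 8 d. No share of all probes is given for the scaled arrays, for this cutoff or for the fits without a single array. Nothing is therefore read from the counts there. With no fold threshold, 7 of the 8 were called higher at 8 d and 7 at 12 d. Centring the arrays on their medians took PSOLI04811 to 0.99 at 15 d.

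Leaving out each array in turn changed no call of a member against non-aged seeds, but 1 to 2 of the 7 then differed for 12 d over 8 d and 2 to 4 for 15 d over 12 d, and 1 to 2 other BURP domain probes were called higher. The 15 d over 12 d difference of the DDI1-like probe (PSOLI03158) lay between 0.14 and 0.21 in these 9 fits, and that of the NIMA-related kinase (PSOLI01902) between 0.20 and 0.32. Same-numbered arrays of different times had deviations that correlated at -0.012 to 0.056, which gave no sign of a pairing. The sources do not say whether the numbers pair the arrays. With the replicate number as a block, the difference of KNAT4 between 15 d and 8 d had an adjusted p of 0.057, and the counts of calls of the 8 probes were 2, 3 and 6 higher as before.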
